A study of Mus musculus with 12 samples.

Results

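The 5 genes described here specify the primordial germ cell, the founder of eggs and sperm, and were followed through 12 RNA sequencing libraries of mouse embryonic stem cells: Dppa3, Prdm1, Prdm14, Tfap2c and Nanos3. They were picked by gene symbol, and all 5 of 5 were found among the 39179 genes counted. The study asked how bone morphogenetic protein (BMP) signalling divides and shapes stem cell cultures, in 2 experiments. In the reporter experiment, cells with the genotype BRE-GFP, on a mixed CBA and C57Bl/6 background and grown in serum (FCS) with Lif on feeder cells, were sorted on SSEA1 and GFP into BRE-positive (3 libraries) and BRE-negative (3 libraries) fractions, paired by collection. BRE is the BMP response element, and GFP reports its activity. In the deletion experiment, cells labelled Smad1/5 -/- (KO, 4 libraries) were set against cells labelled Smad1/5 fl/fl (FL, 2 libraries), in which both genes are flanked by recombination sites but kept. Those cells were on a mixed CD-1, 129/Ola and C57Bl/6 background, grown in 2i medium with Lif on gelatin. They came from 2 parental lines, with 1 FL and 2 KO libraries from each, and the labels do not say which library came from which line. All 4 groups were cultured stem cells, and no group was exposed to a germ cell induction protocol according to the labels.

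In the mouse embryo, BMP4 from the extraembryonic ectoderm acts through SMAD1 and SMAD5, together with WNT3, on a few epiblast cells. These cells switch on Prdm1 (BLIMP1), a repressor of the somatic programme, Prdm14, a repressor that also guards naive pluripotency and holds down DNA methyltransferases, and Tfap2c (AP-2gamma), a transcription factor that acts with them. Dppa3 (Stella) marks the newly formed germ cells and protects methylated DNA after fertilisation, and Nanos3 is an RNA-binding protein that keeps migrating germ cells alive. Prdm14, Tfap2c and Dppa3 are also active in naive embryonic stem cells, where Dppa3 varies from cell to cell.

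By GENCODE M21 coordinates on GRCm38, Dppa3 (ENSMUSG00000046323) lies on the plus strand at chr6:122626410-122630272 and Tfap2c (ENSMUSG00000028640) on the plus strand at chr2:172549593-172558622. Prdm1 (ENSMUSG00000038151, chr10:44437177-44528501), Prdm14 (ENSMUSG00000042414, chr1:13113457-13127163) and Nanos3 (ENSMUSG00000056155, chr8:84173731-84185217) are on the minus strand. The Nanos3 span also holds the microRNA genes Mir181c and Mir181d on the same strand, so counts of Nanos3 may include reads of their precursors. No other gene overlapped the remaining members.

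Dppa3 has a processed copy, Dppa3-ps, on chromosome X (chrX:37625647-37626097, minus strand), and reads of the gene and its copy may be split between them. The copy aligned over 451 of the 453 coding bases with 8 differences (98.2% identity), and its longest run without a difference was 86 bases. The first 120 aligned bases, which start at base 3 of the coding sequence, are shown because they let a reader see how little separates the sequences. Capitals mark the bases that differ (GENCODE M21 transcripts, GRCm38). The Dppa3 stretch covers chr6:122626525-122628610 with an intron between, and the Dppa3-ps stretch covers chrX:37625978-37626097.
Dppa3: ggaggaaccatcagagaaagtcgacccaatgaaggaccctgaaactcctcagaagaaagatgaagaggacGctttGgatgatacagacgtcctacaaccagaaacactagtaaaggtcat
Dppa3-ps: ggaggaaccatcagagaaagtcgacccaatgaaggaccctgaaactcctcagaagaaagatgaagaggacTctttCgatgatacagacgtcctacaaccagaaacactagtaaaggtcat
The copy was given 1 to 43 counts in a library, which is 0.93% to 2.94% of the Dppa3 count. How many Dppa3 reads were lost or gained through the copy was not tested.

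CPM, the counts of a gene relative to the library total, are scaled by the trimmed mean of M-values (TMM), and each library held between 25862573 and 37319846 counts. Levels of different genes are compared in CPM per kb of exon. On that scale Dppa3 was the most abundant of the 5 in the libraries labelled KO, at 36.8 ± 18.6 CPM per kb (SD, n = 4), and in FL libraries, at 48.3 ± 37.5 CPM per kb (SD, n = 2). Prdm14 followed at 13.9 ± 1.4 CPM per kb in KO and 21.1 ± 0.54 CPM per kb in FL, beside Tfap2c at 13.4 ± 3.0 CPM per kb in KO and 19.5 ± 0.75 CPM per kb in FL. Prdm14 and Tfap2c differed by less than their spread in KO on this scale, which divides by the union of a gene's exons. In the deposited TPM, which imply a longer Tfap2c, its level was 0.289 to 0.502 times that of Prdm14 in KO, 0.358 to 0.391 times in FL, 0.556 to 0.606 times in BRE-positive and 0.631 to 1.10 times in BRE-negative libraries. By group mean, Tfap2c was the most abundant per kb of exon union in the reporter cells. It had 6.95 ± 0.98 CPM per kb in BRE-positive and 9.89 ± 1.84 CPM per kb in BRE-negative libraries (SD, n = 3 each). Dppa3 had 3.265 ± 2.74 and 6.68 ± 5.34 CPM per kb in these groups. In BRE-negative library 1 Dppa3 exceeded Tfap2c, at 12.8 against 11.7 CPM per kb. Prdm1 (0.963 ± 0.347 and 1.13 ± 0.36 CPM per kb) and Nanos3 (0.603 ± 0.198 and 0.768 ± 0.103 CPM per kb) were the lowest in BRE-positive and BRE-negative cells. The germ cell factors were therefore present as RNA in every library, Nanos3 with only 13 to 55 counts.

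**Figure D1:**
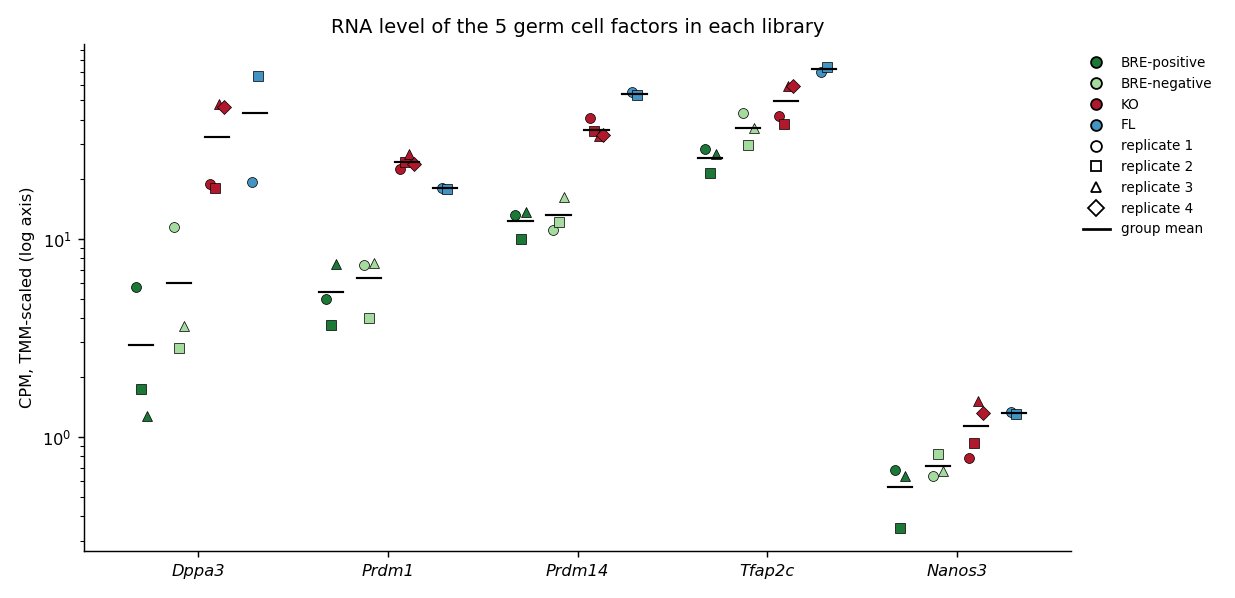
RNA level of the 5 germ cell factors in each of the 12 libraries, in TMM-scaled CPM on a log axis, by group; symbols give the replicate number and bars the group mean. All libraries of the deletion experiment lie above all BRE-positive libraries for each of the 5 factors. The share of all genes that do so was not computed. Both FL libraries lay above all BRE-negative libraries for 34.4% of all genes tested. Dppa3 spans the widest range, with 1.28 CPM at its lowest and 66.7 CPM at its highest.

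Set among their paralogues, the factors took different places. Tfap2c was the highest of the 5 Tfap2 genes in each of the 4 groups, and the next, Tfap2e, reached a mean of at most 0.199 CPM per kb, in BRE-negative libraries. Prdm14 was the highest of 14 Prdm genes in FL, where Prdm4 had 13.3 ± 0.38 CPM per kb, and came second to Prdm4 (14.3 ± 1.1 CPM per kb) in KO. In the reporter cells Prdm14 ranked just below Prdm4 and Prdm2. Nanos3 stood below Nanos1, a paralogue active in the brain, in each group (1.23 ± 0.37 CPM per kb for Nanos3 and 1.92 ± 0.12 CPM per kb for Nanos1 in KO), and Nanos2, which acts later in male germ cells, had 0 counts in all 12 libraries. Among the genes named Dppa, a set joined by name rather than by descent, Dppa5a was far above Dppa3, at group means of 1693 to 1869 CPM per kb.

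**Figure D2:**
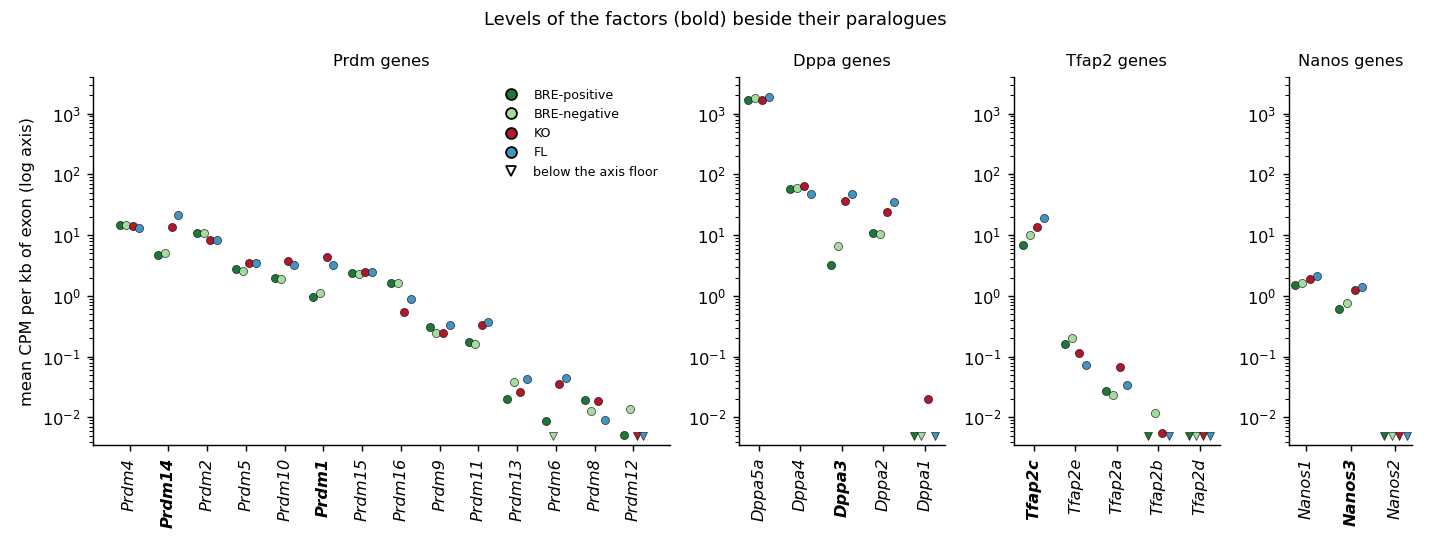
Mean level of each Prdm, Dppa, Tfap2 and Nanos gene in the 4 groups, in CPM per kb of exon on a log axis, with the 5 germ cell factors in bold and values under the axis floor drawn as triangles. Tfap2c stands alone in its family, whereas Prdm1 lies in the middle of the Prdm genes in the reporter cells.

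The cell type markers set limits for reading these levels. The summed level of 8 embryonic stem cell markers was between 3969 and 5063 CPM in all libraries. Single markers differed, with 3 of the 8 called higher and 2 lower by edgeR in FL over BRE-negative, against 25.4% and 23.6% of all genes. Zfp42 had 112 to 125 CPM in reporter and 564 to 631 CPM in deletion libraries, and Utf1 had 66.1 to 120 CPM and 38.4 to 78.0 CPM. Feeder fibroblast markers were present in the sorted reporter cells. All 14 summed to 1419 to 1796 CPM in BRE-positive, 1308 to 1654 CPM in BRE-negative, 546 to 686 CPM in KO and 514 to 517 CPM in FL libraries. Leaving out Fn1, which made up most of the sum in every library, the 13 others summed to 50.7 to 150 CPM in BRE-positive and 83.3 to 175 CPM in BRE-negative libraries, and to 6.93 to 10.4 CPM in KO and 9.35 to 13.4 CPM in FL libraries. Postn, Lum and S100a4 had 0 counts in all 4 KO libraries. Trophectoderm markers, a lineage that also uses Tfap2c, summed to 7.40 to 14.2 CPM, and markers of primitive and visceral endoderm, which also uses Prdm1, to 3.42 to 18.3 CPM over the 12 libraries. The 4 late germ cell markers Ddx4, Dazl, Mael and Sycp3 summed to 34.8 to 44.3 CPM in BRE-positive, 29.6 to 39.8 CPM in BRE-negative, 81.5 to 112 CPM in KO and 114 to 166 CPM in FL libraries. Mael weighed most in the last 2 sums, with 3.08 to 6.68 CPM in reporter and 58.9 to 119 CPM in deletion libraries. Ddx4 went the other way, with 16.2 to 23.2 CPM and 3.28 to 8.06 CPM. In FL over BRE-negative libraries edgeR called 3 of the 4 higher and 1 lower, against 25.4% and 23.6% of all genes. The labels of the deletion could not be checked from counts over whole genes: Smad1 had 12.3 to 17.5 CPM in libraries labelled KO and 18.2 to 19.0 CPM in FL (log2 fold change -0.36 ± 0.14, SE, edgeR adjusted p = 0.187), and Smad5 had 25.2 to 34.5 CPM in libraries labelled KO and 31.5 to 33.6 CPM in FL (-0.091 ± 0.129, adjusted p = 0.719). The part of each gene that was deleted is not given in the labels, and RNA of the remaining exons is still counted. Directions in the deletion experiment are therefore given for the libraries labelled KO.

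The reporter comparison asks what differs between cells with an active BMP reporter and the others of the same culture. The direct BMP target gene Id1 was 1.44, 1.15 and 1.03 times as high in BRE-positive libraries in pairs 1 to 3, and edgeR did not call it. Dppa3 and Tfap2c were lower in BRE-positive than in BRE-negative cells, and none of the 5 factors was higher. Of the 5 members, 2 passed an adjusted p under 0.05 (edgeR quasi-likelihood with the pair as a block, Benjamini-Hochberg over 15435 genes), and both were lower; over all genes tested 2.97% were called, 1.96% higher and 1.02% lower. The median log2 fold change was -0.36 over the 5 members and -9e-04 over all genes tested. In bulk RNA, fewer cells that express a gene and less RNA per cell cannot be told apart.

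Dppa3 had 5.72, 1.74 and 1.28 CPM in BRE-positive libraries 1 to 3, against 11.4, 2.81 and 3.63 CPM in BRE-negative libraries 1 to 3. The BRE-positive library was the lower in each pair, although the groups overlap because both libraries of the first pair were high. The BRE-positive level was 0.50, 0.618 and 0.352 times the BRE-negative level in the 3 pairs. The fitted log2 fold change was -1.01 ± 0.15 (SE, adjusted p = 0.0036), between -1.14 and -0.88 when any pair was left out. These values rest on 34 to 184 counts in BRE-positive and 86 to 412 counts in BRE-negative libraries.

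Tfap2c had 28.4, 21.5 and 26.9 CPM in BRE-positive libraries 1 to 3, against 43.2, 29.6 and 36.3 CPM in BRE-negative libraries 1 to 3. Every BRE-positive library was below every BRE-negative library, where 7.33% of the genes tested did not overlap, 3.41% higher and 3.92% lower. The log2 fold change was -0.48 ± 0.067 (SE, adjusted p = 0.0020), and the 3 pairs gave similar ratios of 0.657, 0.726 and 0.740. The change in Tfap2c was thus smaller than that in Dppa3 but more even between pairs.

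For the other 3 factors no difference passed the threshold. Prdm1 had 4.98, 3.66 and 7.48 CPM in BRE-positive libraries, against 7.41, 3.99 and 7.57 CPM in BRE-negative libraries (log2 fold change -0.23 ± 0.13, adjusted p = 0.389). It was lower in all 3 pairs, as were Dppa3 and Tfap2c and 23.8% of the genes tested, but by 0.018 on the log2 scale in pair 3. Prdm14 had 13.3, 9.997 and 13.6 CPM in BRE-positive libraries, against 11.1, 12.2 and 16.2 CPM in BRE-negative libraries (-0.072 ± 0.105, adjusted p = 0.768). Its direction differed between pairs. Nanos3 had 0.684, 0.348 and 0.639 CPM in BRE-positive libraries, against 0.639, 0.817 and 0.673 CPM in BRE-negative libraries (-0.36 ± 0.34, adjusted p = 0.627), and at 13 to 25 counts a library a difference of this size was not detectable.

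Most feeder markers moved in the same direction as Dppa3 and Tfap2c. Of 14, 4 were called lower in BRE-positive cells (Acta2, Tagln, Col1a2 and Fbln2) and 0 higher, against 1.02% and 1.96% of all genes. The median of the list was -0.42. At an unadjusted p under 0.05 in edgeR, 12 of the 14 were lower and 1 higher, against 2817 of all 15435 genes in either direction. Fn1 (0.15) and Thy1 (0.25) had positive log2 fold changes that were not called after adjustment. All 14 together summed to 1419, 1571 and 1796 CPM in BRE-positive libraries 1 to 3, against 1541, 1308 and 1654 CPM in BRE-negative libraries 1 to 3, lower in BRE-positive in the first pair and higher in the others. Without Fn1 the list summed to 50.7, 150 and 124 CPM in BRE-positive libraries, against 83.3, 175 and 165 CPM in BRE-negative libraries. Across pairs, the sum without Fn1 was lowest in the first pair, where Dppa3 and Tfap2c were highest. Their part in the result was not tested. The calls of Dppa3 and Tfap2c also needed the pair: without it in the edgeR fit, both had an adjusted p of 1.0.

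**Figure D3:**
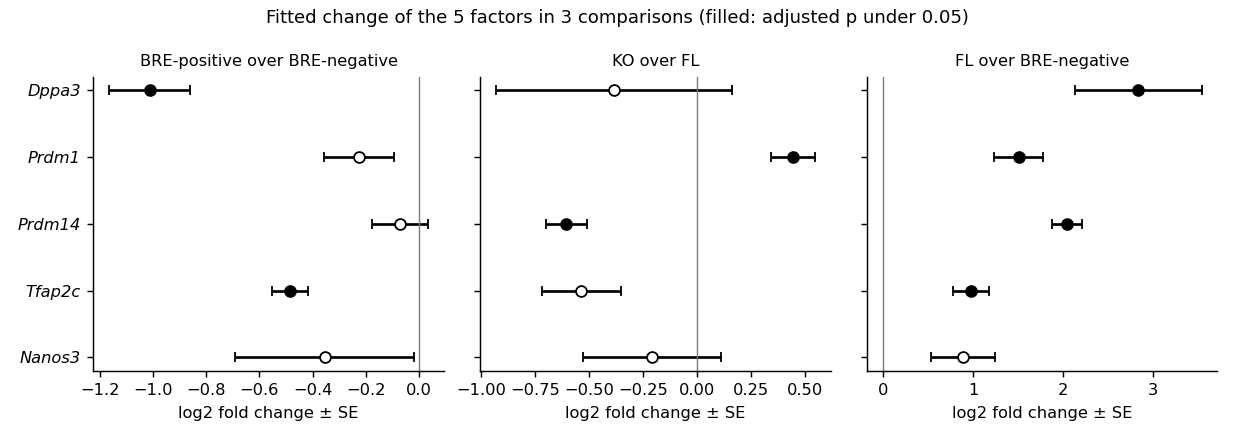
Fitted log2 fold change of the 5 factors with its SE in the reporter, deletion and between-experiment comparisons; filled points passed an adjusted p under 0.05. Dppa3 and Tfap2c lie left of 0 among BRE-positive cells, Prdm14 left and Prdm1 right of 0 in libraries labelled KO, and all 5 right of 0 in FL over BRE-negative.

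The deletion comparison asks what SMAD1 and SMAD5 do in stem cells held in 2i medium. Prdm14 was lower and Prdm1 higher in libraries labelled KO than in FL libraries. That is 2 of 5 members called by edgeR, here with no block, against 5.03% of 15933 genes (1.85% higher and 3.18% lower). The median log2 fold change was -0.38 over the members and 0.0117 over all genes tested. With only 2 FL libraries, both calls hang on those 2 values.

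Prdm14 had 40.7, 35.2, 33.2 and 33.3 CPM in KO libraries 1 to 4, against 55.2 and 53.2 CPM in FL libraries 1 and 2. All 4 KO libraries were below both FL libraries, as for 16.8% of the genes tested. The log2 fold change was -0.61 ± 0.095 (SE, adjusted p = 0.0184), and it lay between -0.67 and -0.51 in all 22 alternatives, of which 17 kept the call. It lost the call without FL 1 (adjusted p = 0.161) and without FL 2 (adjusted p = 0.0789).

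Prdm1 had 22.5, 24.5, 26.9 and 24.0 CPM in KO libraries 1 to 4, against 18.2 and 17.8 CPM in FL libraries 1 and 2. All 4 KO libraries were above both FL libraries, as for 17.7% of the genes tested. The log2 fold change was 0.44 ± 0.10 (SE), and its adjusted p of 0.0495 was just under the threshold. The direction was the same in all 22 alternatives, with log2 fold changes of 0.35 to 0.51, but only 4 of them kept the call. Leaving out KO 1 kept it (adjusted p = 0.0399), whereas leaving out any other library gave 0.0863 to 0.283, and RLE scaling in place of TMM moved the adjusted p to 0.0525.

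For Prdm1, the region upstream of a start site is shown because Prdm1 was called in the libraries labelled KO, and SMAD1 and SMAD5 bind DNA through known short motifs. The 250 bases before the start of transcript Prdm1-201 (RefSeq, GRCm38.p6, chr10:44458749-44458998, minus strand) were searched on both strands for the SMAD box CAGAC, the GC-rich SMAD1/5 element GGCGCC and the TFAP2 motif GCCNNNGGC. Capitals mark the matches, which are the SMAD box at bases -43 to -39 on the forward strand and at -19 to -15 on the reverse strand.
Prdm1: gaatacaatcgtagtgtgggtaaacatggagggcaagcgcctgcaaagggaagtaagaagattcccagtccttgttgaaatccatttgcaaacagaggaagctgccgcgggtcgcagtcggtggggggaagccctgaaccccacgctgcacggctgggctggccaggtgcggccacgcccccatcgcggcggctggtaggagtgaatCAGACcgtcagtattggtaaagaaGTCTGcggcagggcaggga
GGCGCC and GCCNNNGGC had no match in this window. Of 32851 RefSeq windows of the same length, 42.2% held CAGAC, 9.6% GGCGCC and 13.7% GCCNNNGGC on either strand. A match describes letters and shows no binding. The start of Prdm1-201 lies inside the gene's annotated span, and another transcript starts further upstream. The Nanos3 window (chr8:84176553-84176802, minus strand) held 1 SMAD box and 1 TFAP2 motif.

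Tfap2c had 41.6, 38.2, 59.0 and 58.9 CPM in KO libraries 1 to 4, against 69.9 and 73.8 CPM in FL libraries 1 and 2. All KO libraries were below both FL libraries, with KO 3 and KO 4 between KO 1 and KO 2 and the FL libraries. The log2 fold change was -0.54 ± 0.18 (SE, adjusted p = 0.134), and the test did not call it.

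Dppa3 had the widest spread of the 5 factors both within KO and within FL. It had 18.9, 18.1, 48.2 and 46.3 CPM in KO libraries 1 to 4, against 19.4 and 66.7 CPM in FL libraries 1 and 2. FL 1 lay beside KO 1 and KO 2, and FL 2 was the highest of all, so that the 2 FL libraries differed 3.43-fold and the groups overlap. The log2 fold change of -0.38 ± 0.55 (SE, adjusted p = 0.720) turned to 0.74 when FL 2 was left out and was -1.01 when FL 1 was left out. Since the parental line of each library is not given in the labels, all 6 ways of placing 2 KO libraries with each FL library were fitted as a line block. Grouping FL 1 with KO 1 and 2 gave Dppa3 -0.30 (adjusted p = 0.0495) and Tfap2c -0.57 (adjusted p = 0.0056). None of the other 5 placements called either gene in edgeR. KO 3 and KO 4 were also the most alike pair of KO libraries over all genes (median chi-square per gene 1.18), followed by KO 1 and KO 2 (2.08), with 3.29 to 3.54 between those pairs. This likeness comes from the same counts as the calls and does not show the line.

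Nanos3 had 0.783, 0.932, 1.52 and 1.32 CPM in KO libraries 1 to 4, against 1.33 and 1.31 CPM in FL libraries 1 and 2 (log2 fold change -0.21 ± 0.32, SE, adjusted p = 0.739). The groups overlap, and 23 to 55 counts a library left a wide error. In 3 of the 5 factors (Prdm1, Prdm14 and Tfap2c) the KO and FL libraries did not overlap, where 34.5% of all genes tested did not.

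Other cells may count here too. Markers of 2-cell-like cells, a rare state of stem cell cultures, summed to 2.23 to 9.15 CPM in KO libraries and 55.9 to 63.1 CPM in FL libraries. In KO over FL edgeR called 7 of 7 lower (median log2 fold change -3.21), against 3.18% of all genes. Zscan4d, for example, had 0.650 to 4.002 CPM in KO and 25.3 to 29.9 CPM in FL libraries. Whether this bears on the factors was not tested.

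**Figure D4:**
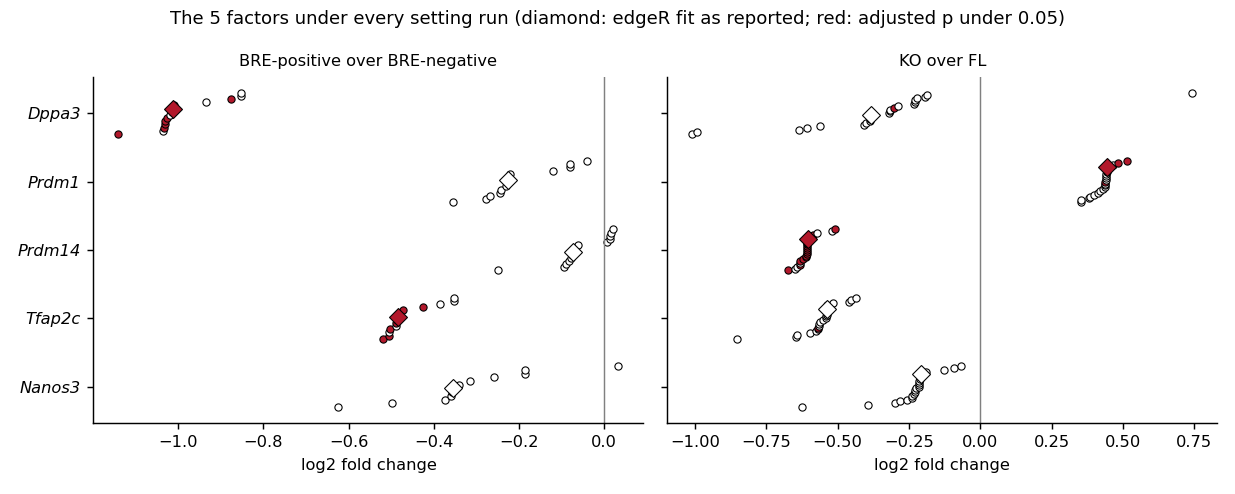
Log2 fold change of the 5 factors in the reporter and deletion comparisons under every setting run, with the reported edgeR fit as a diamond and fits with an adjusted p under 0.05 in red. Dppa3, Prdm1 and Tfap2c stay left of 0 in the reporter comparison; in the deletion comparison Prdm14 stays left and Prdm1 right of 0, while Dppa3 crosses to 0.74 without FL 2.

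FL libraries held more Dppa3, Prdm14, Prdm1 and Tfap2c RNA than BRE-negative libraries, 4 of 5 members called against 49.0% of 17112 genes (25.4% higher and 23.6% lower). Strain, line, medium, feeder cells, sorting and batch all differ between these groups and cannot be told apart. Prdm14 showed the smallest error, with 55.2 and 53.2 CPM in FL libraries, against 11.1, 12.2 and 16.2 CPM in BRE-negative libraries (log2 fold change 2.04 ± 0.17, SE, edgeR adjusted p = 8.77e-07). The log2 fold change was 1.504 ± 0.268 for Prdm1 (adjusted p = 0.00051) and 0.98 ± 0.20 for Tfap2c (adjusted p = 0.0014). Dppa3 was 2.83 ± 0.70 higher on the log2 scale (adjusted p = 0.0049), but 1.70 with an adjusted p of 0.109 when FL 2 was left out. Nanos3 missed the threshold at 0.89 ± 0.36 (adjusted p = 0.0521). For each of the 5 factors both FL libraries lay above all 3 BRE-negative libraries, where 66.8% of all genes tested did not overlap, 34.4% higher and 32.4% lower. KO libraries overlapped BRE-negative libraries for Tfap2c and Nanos3 and lay above them for the other 3 factors. The share of all genes that separate KO from BRE-negative libraries was not computed, so this is not read as a trait of the factors.

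Ordered by group mean, Dppa3, Prdm14, Tfap2c and Nanos3 were highest in FL, then KO, BRE-negative and BRE-positive, and Prdm1 differed only in having KO above FL. Neighbouring groups overlapped for Dppa3 and Nanos3 in KO and FL, for Tfap2c and Nanos3 in KO and BRE-negative, and for Dppa3, Prdm1, Prdm14 and Nanos3 in BRE-positive and BRE-negative libraries. For each factor the 3 most alike of 10694 named protein-coding genes were found from the root mean square difference of log2 CPM over the 12 libraries, each gene centred on its own mean. For Prdm14 these were Cd99l2 (0.187), Sorl1 (0.204) and Mkrn3 (0.205), and for Prdm1 they were Cd55 (0.225), Sfxn2 (0.227) and Pqlc3 (0.267). For Tfap2c they were Tprn (0.214), Rnf130 (0.215) and Mbp (0.217). Nanos3 had Map3k5 (0.255), Tfap2c itself (0.257) and Rhobtb3 (0.266). For Dppa3 they were Myb (0.650), Shf (0.651) and Rnf135 (0.684), with Prdm1 as its nearest fellow factor (1.10). The measure grows with a factor's own spread, an SD of 1.92 on the log2 scale for Dppa3 and 0.575 for Tfap2c, so its size is not compared between factors. These likenesses describe 12 libraries that share the step between the experiments, and nothing else is read from them.

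The wider germ cell network was read from 5 lists of 67 genes. In the reporter comparison 61 were tested, of which 0 were higher and 2 lower, a share of 3.28% against 2.97% of all genes. At an unadjusted p under 0.05 in edgeR 8 were higher and 7 lower, against 2817 of all 15435 genes in either direction. DESeq2 called the same number, 0 higher and 2 lower. Ifitm1, a membrane protein gene of early germ cells, was lower (log2 fold change -0.43 ± 0.087, SE, adjusted p = 0.0180), with 14.2 ± 4.8 CPM in BRE-positive and 19.1 ± 3.9 CPM in BRE-negative libraries (SD, n = 3 each). Dnmt3b, a de novo DNA methyltransferase that PRDM14 holds down, was also lower (-0.32 ± 0.057, adjusted p = 0.0090). Without pair 3 the call of Ifitm1 was lost (adjusted p = 0.104), and the 2 network calls became 9 without pair 1 and 4 without pair 2. Id1, a direct target of BMP signalling, had 27.6 ± 1.1 CPM in BRE-positive and 23.4 ± 4.7 CPM in BRE-negative libraries (0.28 ± 0.084, adjusted p = 0.0975). Nanog, Otx2, the mesoderm gene T, Ifitm3, Ehmt1 and Cbfa2t2 did not pass, with log2 fold changes of -0.050, -0.43, -0.23, 0.026, -0.046 and -0.044. Among the upstream genes, 0 of 11 BMP ligands, receptors and SMADs and 0 of 5 WNT and mesoderm inducers were called by edgeR (2 and 1 at an unadjusted p under 0.05).

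In the deletion comparison 64 network genes were tested, of which 5 were higher and 6 lower in libraries labelled KO, a share of 17.2% against 5.03% of all genes. Early germ cell genes gave 4 lower and 0 higher of 17, with a list median of -0.52. Stra8, the gene that readies germ cells for meiosis, had 0.497 to 0.988 CPM in KO and 6.59 to 12.3 CPM in FL libraries (log2 fold change -3.75 ± 0.33, SE, adjusted p = 0.0061). Kit, the receptor that migrating germ cells need to survive, was lower by -0.99 ± 0.17, Ddx4, a helicase of later germ cells, by -0.92 ± 0.17, and Piwil2, a piRNA-binding protein, by -0.57 ± 0.13. Ifitm3 had a log2 fold change of 0.22 ± 0.16 and was not called.

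Of 14 tested partners and targets of PRDM1 and PRDM14, 3 were called higher and 0 lower in KO over FL (list median 0.18), against 1.85% and 3.18% of all genes. Dnmt3b had 382 to 580 CPM in KO and 267 to 310 CPM in FL libraries (0.79 ± 0.18, adjusted p = 0.0447), and its cofactor Dnmt3l was higher by 0.74 ± 0.16. Myc, which PRDM1 is known to repress in B cells, was higher by 1.26 ± 0.28. Prdm1 was itself called higher in these libraries (0.44 ± 0.10, edgeR adjusted p = 0.0495), and whether it bears on Myc here was not tested. The PRDM14 partner gene Cbfa2t2 (0.17 ± 0.066) and Ehmt1, a histone methyltransferase that germ cells turn down (0.35 ± 0.12), were not called. Dnmt3b rose in libraries labelled KO, where Prdm14 fell, and fell in BRE-positive cells, where Prdm14 was not called. Dnmt3a, of the same list, had a log2 fold change of -0.22 ± 0.10 (SE) in KO over FL and was not called. Whether Prdm14 bears on Dnmt3b here was not tested.

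Of 15 pluripotency genes, Utf1 was higher (0.76 ± 0.12), and Nanog (-0.60 ± 0.057) and Dppa2 (-0.55 ± 0.11) were lower. Over all genes 1.85% were called higher and 3.18% lower. Otx2, which keeps epiblast cells from the germ cell fate, had 27.5 to 38.5 CPM in KO and 16.6 to 24.7 CPM in FL libraries (0.62 ± 0.19, adjusted p = 0.103). Bmp4 was the only called gene among 11 of BMP signalling (0.54 ± 0.12). Among 7 WNT and mesoderm inducers edgeR called 0, with 1 at an unadjusted p under 0.05, against 3646 of all 15933 genes. T had 3 to 12 counts in KO and 10 to 11 counts in FL libraries (-0.49 ± 0.49), and Id1, outside these lists, had 0.32 ± 0.16 (edgeR adjusted p = 0.280). The calls in this comparison were sensitive to single libraries: the 11 network calls became 0 without FL 1, 3 without FL 2, 5 without KO 2, 2 without KO 3 and 3 without KO 4. Among the 6 fits that leave out a library, Stra8 and Nanog lost their calls only without FL 1. Over all 22 alternatives, Stra8 kept its call in 20 and Nanog in 18. Each of the other 9 lost its call in at least 3 of the 6 fits that leave out a library.

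**Figure D5:**
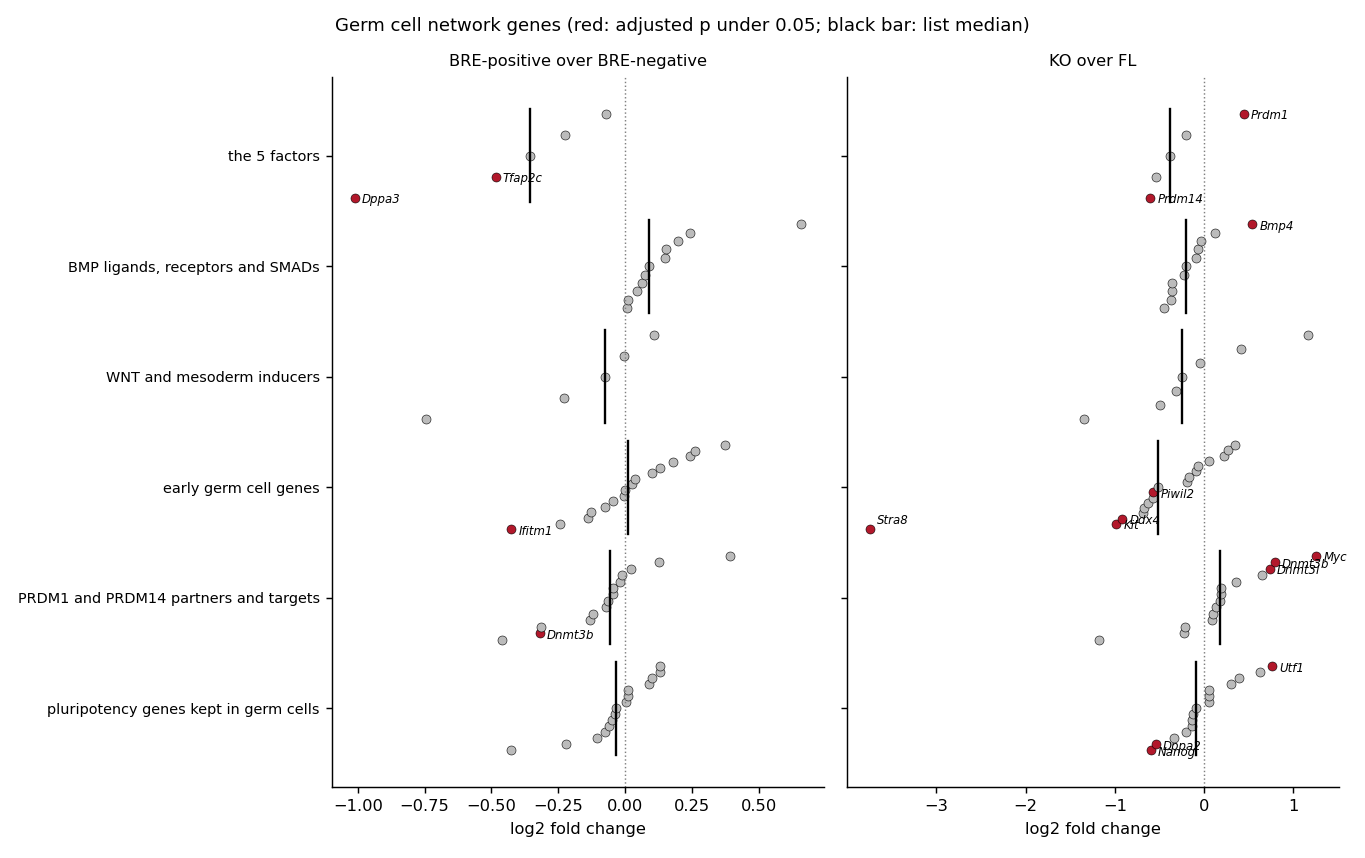
Log2 fold change of the 5 factors and of the genes in 5 germ cell network lists, in the reporter and the deletion comparison; each point is a gene, red points passed an adjusted p under 0.05 and black bars give the list median. In the reporter comparison 2 network genes are red, and in the deletion comparison 11, with Stra8 at -3.75 and Myc at 1.26 as the ends.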

How the data were processed

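Total RNA was column-purified and made into stranded libraries after removal of ribosomal RNA, per the labels' protocols. The submitters' processing notes name STAR 2.4.1d, featureCounts 1.4.6, CASAVA 1.8.2, DESeq2 1.6.3 and FastQC 0.11.3, and list GRCm38.p4 as well as mm10. Whether counting used strand, and which annotation, is not given in the sources used. The authors deposited raw counts per gene and TPM values, a normalised signal. By their values, these TPM equal (count + 1) over a gene length, scaled per library over 38310 unique genes.

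The counts were tested with edgeR 4.0.16 (R 4.3.3, quasi-likelihood, TMM, minimum count 10) and Benjamini-Hochberg adjustment over all genes, with 0.05 as the threshold. All 5 members passed the count filter in each comparison. The reporter fit used the pair as a block: the series states paired collection, and same-numbered libraries deviated together (r = 0.711, 0.588 and 0.529 across genes). The KO fit had no block, so KO libraries of 1 line count as independent. FL over BRE-negative came from a fit of 12 libraries in 4 groups. Separate cultures are not described, so a p-value reflects only how much these libraries vary. CPM per kb uses the GENCODE M21 exon union. The script was tested on simulated counts. Members and lists were chosen with earlier results of these data known. Called list genes were named up to 4 per list by size of change, with Nanog, Otx2, T, Id1, Ifitm3, Dnmt3b, Ehmt1 and Cbfa2t2 in any case. Smad1, Smad5, Zscan4d, Zfp42, Mael and paralogues were named after their values were seen. Alternatives were DESeq2 1.42.0, RLE scaling, other filters, limma 3.58.1 on log2(TPM + 1) or log2(TPM + 0.1), other blocks, length and GC offsets, and single libraries left out. Upstream windows were found for 2 of the 5 members.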

Additional observations from a re-analysis of the deposited data

Results flagged for a closer look

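Among 38 sets of 4 KO values of the named genes, 2 held a library that stood apart from the rest, where chance alone marks about 1 in 20; neither gene is among the 5 factors. Ddx4, a helicase of later germ cells, had 4.12, 3.28, 4.28 and 4.19 CPM in KO libraries 1 to 4, and the gap below the others took up 0.838 of the range. Dnd1, an RNA-binding protein of germ cells, had 6.70, 9.46, 6.43 and 6.30 CPM in KO libraries 1 to 4, and the gap above the others took up 0.873 of the range. KO 2 was the library apart in both.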

How the results depend on the processing

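All 5 factors kept their direction in every setting run, with these exceptions. In the reporter comparison Prdm14 turned to 0.014 (limma on log2(TPM + 1), with and without the filter), 0.016 (log2(TPM + 0.1)), 0.021 without replicate 2 and 0.0061 without replicate 3 (down to -0.25 without replicate 1), and Nanos3 to 0.034 without replicate 2 (down to -0.63 without replicate 1). In the deletion comparison Dppa3 turned to 0.74 without FL replicate 2 (-1.01 without FL replicate 1). None of these passed the threshold. Of the other named genes in the reporter comparison, Nanog (0.041), Ehmt1 (0.042 and 0.045) and Cbfa2t2 (0.046 and 0.047) turned in the limma fits. Ifitm3 turned to -0.0032 with all 12 libraries and -0.066 without replicate 1 (up to 0.13 without replicate 3), Stra8 to -0.30 without replicate 2 (up to 0.39) and T to 0.14 without replicate 3 (down to -0.57). In the deletion comparison Ifitm1 turned to 0.021 with length and GC offsets, 0.027 without KO replicate 2 and 0.042 without FL replicate 2 (down to -0.22). The cause was not tested in any of these.

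In the reporter comparison edgeR called 459 genes, 2 factors and 2 network genes. With no replicate block it called 0 genes, 0 factors and 0 network genes (343 genes at an unadjusted p under 0.05), with all 12 libraries in 1 fit 0, 0 and 0 (516), and the 3 limma fits called 0, 0 and 0 (2406, 2244 and 4191). Dppa3 and Tfap2c kept their calls in 8 of 13 alternatives each and lost them in those 5. With no count filter there were 1010 genes and 6 network genes, and length and GC offsets gave 5 network genes. Leaving out a pair gave 200 to 2225 genes and 2 to 9 network genes, with the fewest genes without replicate 3 and the most without replicate 1, and both factors in each fit.

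In the deletion comparison edgeR called 801 genes, 2 factors and 11 network genes, and DESeq2 1498 genes. RLE scaling, no count filter, the filter at 1 CPM and all 12 libraries left 1 factor, Prdm14. The 1 CPM filter left 7 network genes and the fit of 12 libraries 5. Limma called 149 genes, 1 factor and 2 network genes on log2(TPM + 1), 57, 0 and 1 on log2(TPM + 0.1), and 193, 0 and 3 without a filter (2 factors at an unadjusted p under 0.05 in each). The replicate block on the title numbers called 0 genes, 0 factors and 0 network genes (2589 genes at an unadjusted p under 0.05). These numbers do not pair the libraries: the deviations of KO 1 and FL 1 had r = 0.263, and those of KO 2 and FL 2 had r = -0.424. KO 2 with FL 1 had r = 0.424, and KO 3 and KO 4 with FL 2 had r = 0.407 and 0.363; since 2 FL libraries deviate by equal and opposite amounts, each KO library has the opposite r with the other FL library. The line block gave 2927 genes, 4 factors and 23 network genes with FL 1 beside KO 1 and 2. In that placement each KO library stands with the FL library it correlates with positively. These r come from the same counts as the calls, so they do not show the line, and the labels do not give it. The other placements gave 250, 325, 380, 419 and 498 genes and 1 factor each, and the first 4 of them 4, 4, 4 and 5 network genes. Length and GC offsets gave 1302 genes, of which 793 were higher and 509 lower, against 294 higher and 507 lower. Leaving out a library gave 0 to 857 genes, 0 to 2 factors and 0 to 10 network genes, with 0 genes without FL replicate 1 (edgeR, 1948 at an unadjusted p under 0.05), 142 without FL replicate 2, 236 without KO replicate 3 and 215 without KO replicate 4. The lone FL library is then assumed to vary like the KO libraries. FL over BRE-negative called 8388 genes and 4 factors, with 6085 to 8000 genes and 3 to 4 factors when a library was left out. The replicate block there called 5 factors, Nanos3 included.

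With 2 FL libraries and 13 to 55 Nanos3 counts a library, changes the size of those in Nanos3 could not be resolved, and Dppa3 in the reporter cells rests on as few as 34 counts.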

Other observations

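Set against BRE-negative libraries, 21 of 65 network genes tested were higher and 19 lower in FL libraries, a share of 61.5% against 49.0% of all genes. Among 7 WNT and mesoderm inducers 2 were higher and 0 lower, and among 14 partners and targets of PRDM1 and PRDM14 4 were higher and 4 lower. Of 17 early germ cell genes tested 8 were higher and 4 lower in FL, and of 15 pluripotency genes 6 were higher and 5 lower, beside 25.4% higher and 23.6% lower over all genes. Of 12 BMP ligands, receptors and SMADs 1 was higher and 6 were lower, and Id1 had 4.76 and 4.95 CPM in FL libraries, against 18.5 to 28.0 CPM in BRE-negative libraries. All 7 markers of 2-cell-like cells were higher in FL, and all 14 feeder markers were lower. Line, strain, medium, feeders, sorting and batch cannot be told apart here.

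The order of the factors depends on the gene length that divides the counts. In the deposited TPM values the implied length of Tfap2c is 9080 bases, against an exon union of 3679 bases, and that of Prdm1 is 8282 bases, against 5579 bases, whereas Dppa3 (892 bases) and Prdm14 (2564 bases) have the same length both ways. Of 18430 genes with overlapping exon records, 53.5% had an implied length within 1% of the sum of all distinct exon records and 1.5% within 1% of the exon union. In BRE-positive libraries the Tfap2c level was 0.556 to 0.606 times that of Prdm14 in deposited TPM and 1.37 to 1.5 times in CPM per kb of exon union. In BRE-negative libraries the ratio was 0.631 to 1.10 in TPM and 1.56 to 2.72 in CPM per kb. In KO libraries it was 0.289 to 0.502 in TPM and 0.712 to 1.24 in CPM per kb, and in FL libraries 0.358 to 0.391 in TPM and 0.883 to 0.966 in CPM per kb. Ratios between libraries for 1 gene do not depend on this length.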
